A study of Homo sapiens with 2 samples.

Results

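The 9 genes described here encode the matriptase, hepsin and prostasin system of epithelial cells, made up of 7 trypsin-like serine proteases held at the cell membrane and 2 inhibitors with Kunitz domains. They were chosen by name from a list (ST14, HPN, PRSS8, TMPRSS4, TMPRSS13, TMPRSS11D, TMPRSS11E, SPINT1 and SPINT2). No rule on their values was used, but earlier results of these data were known. All 9 were found among the 21382 genes of the deposited table. The transcripts were measured by RNA-Seq of total RNA in 2 untreated human prostate cancer cell lines with 1 library each, so no value has an error and no difference was tested. MDA PCa 2b, a line from a bone metastasis of a prostate adenocarcinoma, was kept in F-12K medium with serum, cholera toxin, epidermal growth factor, phosphoethanolamine, hydrocortisone, selenite and insulin. RC77 T/E, a line from a prostate tumor that was immortalized with papillomavirus oncogenes, was kept in serum-free keratinocyte medium that contained epidermal growth factor and bovine pituitary extract. Cell line, medium and library cannot be told apart in this design.

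Membrane-anchored serine proteases are made as inactive precursors and are activated by a cut just before the catalytic domain, often by another member of the family. Matriptase (ST14) and prostasin (PRSS8) activate each other on epithelial surfaces, and matriptase and hepsin (HPN) cut the precursors of hepatocyte growth factor and of urokinase. The inhibitors HAI-1 (SPINT1) and HAI-2 (SPINT2) are themselves membrane proteins and block these enzymes, and hepsin is known as a transcript that is often raised in prostate cancer. Whether a protease is active cannot be read from its transcript.

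Both lines shared a core, with SPINT1, SPINT2, PRSS8 and ST14 each at 1 TPM (a transcript level normalized for gene length and for the library total) or more in both libraries and within 2-fold between them. HPN had a level above 0 only in the MDA PCa 2b library, and RC77 T/E cells have a listed value of 0. TMPRSS4 was at 1 TPM or more in RC77 T/E cells only, and TMPRSS13, TMPRSS11D and TMPRSS11E stayed under 1 TPM in both lines. Thus 5 of 9 members reached 1 TPM in MDA PCa 2b, where 49.6% of all genes did, and 5 of 9 in RC77 T/E cells, where 52.8% of all genes did. Most values of 1 TPM or more were deposited without their decimal mark. The authors' own mean and standard error fix the mark for SPINT1, SPINT2 and TMPRSS4. The values of TMPRSS13, TMPRSS11D and TMPRSS11E, all under 1 TPM, were read as written. For ST14, HPN and PRSS8 the mark has 2 possible positions, a factor of 10 apart, and both values are given. The ratio of the 2 lines is the same at either position.

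**Figure D1:**
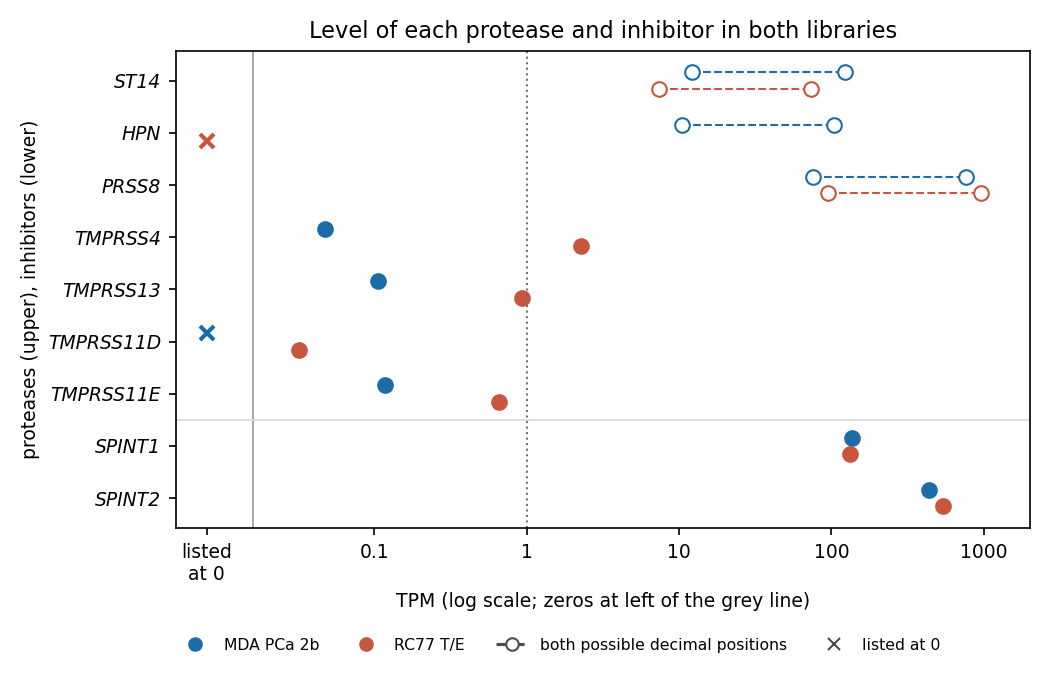
Level of the 7 proteases and 2 inhibitors in the MDA PCa 2b (blue) and RC77 T/E (red) libraries, as TPM on a log scale, with the threshold of 1 TPM dotted. Open circles joined by a dashed line are the 2 possible positions of a lost decimal mark, and crosses are values listed at 0. SPINT1 (136.1 and 132.8 TPM) and SPINT2 (438.3 and 536.3 TPM) sit far to the right in both libraries, while HPN has a circle pair for MDA PCa 2b compared with a cross for RC77 T/E.

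Promoter sequence was at hand for 4 of the members (HPN, SPINT1, TMPRSS11D and TMPRSS11E). The 250 bases before the gene start in RefSeq (build GRCh38.p14) are printed for 3 of them because they stand for the 3 patterns in the data: SPINT1 was high in both lines, HPN had a value in one and an entry of 0 in the other, and TMPRSS11E was low in both. Each is written from 5′ to 3′ on the strand of the gene, and capitals mark matches, on either strand, to a GC box (GGGCGG) or a TATA box (TATAAA). The SPINT1 window is chr15:40843798-40844047 on the plus strand, the HPN window chr19:35041471-35041720 on the plus strand, and the TMPRSS11E window chr4:68447213-68447462 on the plus strand.
SPINT1: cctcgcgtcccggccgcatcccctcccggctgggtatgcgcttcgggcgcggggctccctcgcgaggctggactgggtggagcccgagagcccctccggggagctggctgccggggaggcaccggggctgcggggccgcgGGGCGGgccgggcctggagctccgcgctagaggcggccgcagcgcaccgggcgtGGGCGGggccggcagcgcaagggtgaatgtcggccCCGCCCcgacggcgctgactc
HPN: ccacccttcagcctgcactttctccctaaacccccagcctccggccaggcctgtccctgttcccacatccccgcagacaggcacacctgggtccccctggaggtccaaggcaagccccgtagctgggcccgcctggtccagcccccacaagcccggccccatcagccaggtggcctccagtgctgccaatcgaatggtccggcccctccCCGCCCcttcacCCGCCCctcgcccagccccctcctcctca
TMPRSS11E: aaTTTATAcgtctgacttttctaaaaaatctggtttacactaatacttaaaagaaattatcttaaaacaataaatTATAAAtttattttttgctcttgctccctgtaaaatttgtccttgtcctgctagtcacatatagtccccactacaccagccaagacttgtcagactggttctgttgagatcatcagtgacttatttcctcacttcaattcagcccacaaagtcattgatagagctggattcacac

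These windows differ most in base composition. The SPINT1 window had 80.4% G and C and 35 CpG dinucleotides, more CpG than 94.2% of the 35116 RefSeq windows of this length. The HPN window had 70.4% G and C but only 10 CpG dinucleotides, close to the median of 11. Those of TMPRSS11E and TMPRSS11D were rich in A and T, at 34.4% and 31.6% G and C, and each held 1 CpG. The GC box occurred 3 times in the SPINT1 window and 2 times in the HPN window, and 42.6% of all windows hold at least 1. The TATA box letters occurred 2 times in the TMPRSS11E window and are found in 10.7% of all windows. No AP-1 site (TGACTCA, 4.20% of all windows) was matched in any window of these genes, and 1 steroid receptor half-site (TGTTCT, 12.4% of all windows) lay in the window of a second SPINT1 start at base 40844477. A match is a run of letters and not a measured binding site. RefSeq places the HPN start at base 35041721, inside the interval of the deposited table, which begins at base 35040506, and the printed window holds 0 exon bases of HPN in GENCODE release 29, so that it is intronic there. The last 30 bases of the printed SPINT1 window and the last 14 of the TMPRSS11E window belong to the first exon of these genes in that release, and the rest lies upstream. The window of the second SPINT1 start lies wholly within SPINT1 in that release and holds 52 of its exon bases.

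SPINT1 and SPINT2, the inhibitors, were the members whose levels are fully determined and high in both lines. SPINT1 (ENSG00000166145, chromosome 15 of GRCh38, 40844018 to 40858207) stood at 136.1 TPM in the MDA PCa 2b library, compared with 132.8 TPM for RC77 T/E. These values were nearly equal, and only 2.45% of the 11624 genes that averaged at least 1 TPM over both lines had a smaller difference on the log2 scale. That rank depends on the scaling. With log2 ratios centred on the median of all genes, SPINT1 came to 0.12 in place of -0.04, and the rank was not recomputed. SPINT2 (ENSG00000167642, chromosome 19, 38244035 to 38292615) stood at 438.3 TPM in the MDA PCa 2b library and at 536.3 TPM in the other, which is 1.22 times as high in RC77 T/E. SPINT2 exceeded SPINT1 by 3.22 times in the MDA PCa 2b library and by 4.04 times in the other, a comparison that TPM allows because it is made per length. Depending on their own decimal marks, 179 to 1537 of the 21382 genes exceeded SPINT2 in the MDA PCa 2b library, and 169 to 909 did so in that of RC77 T/E. In GENCODE release 29, SPINT2 shares 5355 bases with PPP1R14A on the opposite strand, which is listed at 0 for MDA PCa 2b, whereas its possible values for RC77 T/E run from 4.81 to 480.7 TPM. It also shares 3464 bases with AC011479.1, a protein-coding gene on its own strand, whose level was not analysed here. SPINT1 likewise overlaps an antisense gene, SPINT1-AS1, over 370 bases, and PRSS8 overlaps AC009088.3 over 445 bases. The libraries were strand-specific, but whether the deposited values use the strand is not stated, and the part of these neighbours in the values was not tested.

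ST14 and PRSS8, a protease pair that acts together in many epithelia, were present in both lines and differed in opposite directions, each by less than 2-fold. ST14 (ENSG00000149418, chromosome 11, 130159782 to 130210362) had 12.2 or 122.1 TPM in MDA PCa 2b, with 7.35 or 73.5 TPM in RC77 T/E. The MDA PCa 2b level was thus 1.66 times the other. PRSS8 (ENSG00000052344, chromosome 16, 31131433 to 31135727) had 75.9 or 759 TPM in MDA PCa 2b, with 95.3 or 953 TPM in RC77 T/E. Here the RC77 T/E level was the higher, by 1.25 times, and the ratio of PRSS8 to ST14 in RC77 T/E was 2.09 times that in the other line. This last figure depends neither on the decimal mark nor on the scaling of the libraries, because both cancel in a ratio of ratios. Which of the pair was the more abundant in MDA PCa 2b depends on the marks. In RC77 T/E, PRSS8 was above ST14 at every position, by at least 1.30 times.

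HPN, the member best known in prostate cancer, was measured above 0 in only 1 of the 2 libraries. HPN (ENSG00000105707, chromosome 19, 35040506 to 35066573) had 10.4 or 104 TPM in the MDA PCa 2b library, and its entry for RC77 T/E is 0. Because no read counts were used, the zero has no limit of detection and no fold is given. An entry of 0 in this table can also be a failed estimate: of 10 genes that every cell uses, EEF1A1, which encodes a translation factor, is listed at 0 for MDA PCa 2b while RC77 T/E had 2393 TPM. In all, 188 genes that reached 1 TPM in MDA PCa 2b have an entry of 0 for RC77 T/E, and 243 genes show the reverse. HPN-AS1, a long noncoding RNA on the opposite strand that shares 7513 bases with HPN, had the same pattern, with 0.650 TPM for MDA PCa 2b compared with 0 for RC77 T/E. Reads from either gene can reach both values if the strand was not used, so HPN-AS1 is not an independent measurement.

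The 4 remaining proteases were low. TMPRSS4 (ENSG00000137648, chromosome 11, 118077012 to 118121890), a protease described in several epithelial cancers, had 0.0474 TPM for MDA PCa 2b against 2.28 TPM for RC77 T/E. The RC77 T/E level was 48.2 times the other by TPM, and the log2 ratio was 1.65 with the pseudocount of 1 TPM that is used for all log2 ratios here, which shrinks the change of low genes. TMPRSS13 (ENSG00000137747), which lies 147.6 kb away on the same chromosome from 117900641 to 117929459, had 0.106 TPM for MDA PCa 2b against 0.932 TPM for RC77 T/E. Both of these neighbours were higher in RC77 T/E, TMPRSS13 by 8.76 times, yet TMPRSS13 fell just short of 1 TPM. TMPRSS4 shares 11288 bases with SMIM35 on the opposite strand.

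TMPRSS11D, the airway trypsin-like protease, and TMPRSS11E, also called DESC1, belong to a cluster of related genes on chromosome 4. TMPRSS11E (ENSG00000087128, 68447463 to 68497604) had 0.118 TPM for MDA PCa 2b against 0.659 TPM for RC77 T/E, 5.60 times as high in the latter. A second locus of the same name is listed at 0 in both lines, and the levels given here are the sum. TMPRSS11D (ENSG00000153802, 67820876 to 67884002) is listed at 0 for MDA PCa 2b, with 0.0323 TPM for RC77 T/E. With TMPRSS11A, TMPRSS11B and TMPRSS11F, the 5 genes of the cluster analysed did not exceed these 2 TMPRSS11E levels. At an unknown depth, differences between values this low have no stated precision. TMPRSS11D also lies wholly within UBA6-AS1, a gene of the opposite strand, over 63157 bases.

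The difference between the lines was read against all genes. Of the 9 members, 6 averaged at least 1 TPM, and a 2-fold or larger ratio on the scale of log2 (TPM + 1) was counted as called. Of these 6, TMPRSS4 alone was called higher in RC77 T/E, beside 19.4% of the 11624 genes that averaged as much. HPN alone was called higher in MDA PCa 2b, beside 20.0% of those genes. The other 4 were within 2-fold, as were 60.7% of all genes, so the share of members called is close to the background. TMPRSS4 and HPN passed the filter only through the line in which they are high. On this scale RC77 T/E over MDA PCa 2b came to -0.66 for ST14, -0.04 for SPINT1, 0.29 for SPINT2 and 0.32 for PRSS8, and the median of all 11624 genes was -0.15. The median of the 6 members was 0.13.

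**Figure D2:**
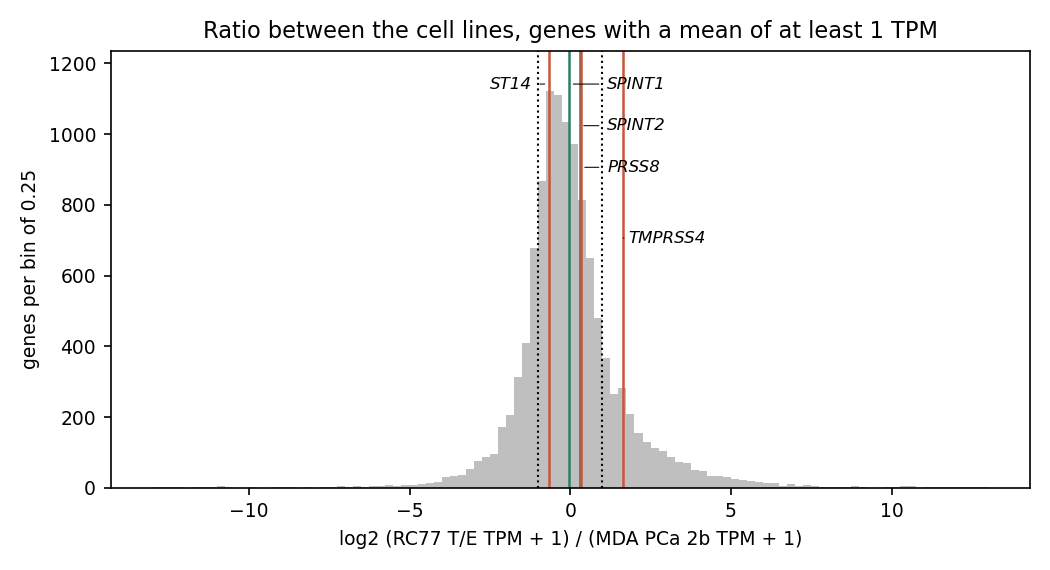
Histogram of log2 ratios, RC77 T/E over MDA PCa 2b with 1 TPM added to each, for the 11624 genes that averaged at least 1 TPM, in bins of 0.25 and with the 2-fold limits dotted. Vertical lines mark the proteases (red) and inhibitors (green) with values above 0 in both lines. ST14 (-0.66), SPINT1 (-0.04), SPINT2 (0.29) and PRSS8 (0.32) lie in the bulk of the genes, and TMPRSS4 (1.65) lies beyond the upper limit.

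Inhibitor and protease levels were then compared within each library. SPINT1 exceeded ST14 in both lines at every possible position of the mark, by 1.12 or 11.2 times in the MDA PCa 2b library and by 1.81 or 18.1 times in the other. SPINT2 exceeded ST14 by 3.59 or 35.9 times in MDA PCa 2b, and by 7.30 or 73.0 times in RC77 T/E. Relative to ST14, both inhibitors were therefore higher in RC77 T/E, SPINT1 by 1.62 times and SPINT2 by 2.03 times. In MDA PCa 2b, SPINT1 exceeded HPN by 1.31 or 13.1 times and SPINT2 exceeded it by 4.21 or 42.1 times.

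Against PRSS8 the order is not settled. SPINT2 was 0.577 or 5.77 times the level of PRSS8 for MDA PCa 2b compared with 0.563 or 5.63 times for RC77 T/E. The relation itself hardly differed between the lines, since the ratio of SPINT2 to PRSS8 in RC77 T/E was 0.975 times that in MDA PCa 2b. For SPINT1 to PRSS8 this quotient was 0.778. The inhibitors summed to 574.4 TPM in the MDA PCa 2b library and to 669.1 TPM in the other. The sum of ST14, HPN and PRSS8 lay between 98.5 and 985.4 TPM in the former and between 102.6 and 1026 TPM in the latter, so whether inhibitor transcripts outnumbered those of the 3 proteases cannot be told.

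**Figure D3:**
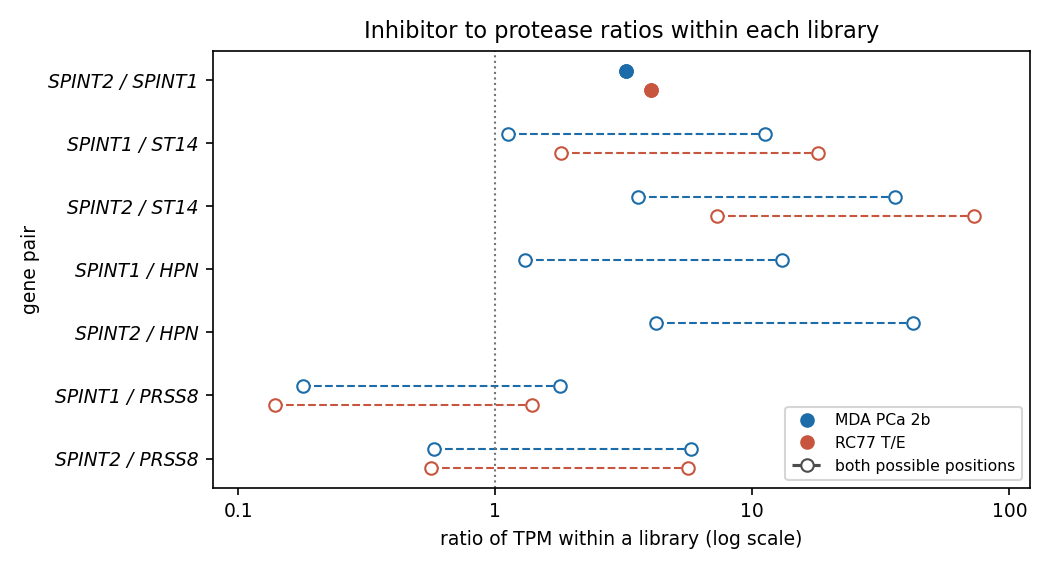
Ratio of TPM between pairs of members within the MDA PCa 2b (blue) and RC77 T/E (red) libraries, on a log scale with equality dotted, where open circles joined by a dashed line are the smallest and largest ratio that the lost decimal marks allow. The ratios to ST14 lie above 1 throughout, from 1.12 to 73.0, whereas those to PRSS8 span 1 in both lines. No ratio to HPN is drawn for RC77 T/E, where HPN is listed at 0.

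Other genes of the pathway were taken from 3 lists. Among 13 further membrane-anchored proteases, TMPRSS2, an androgen-regulated protease of the prostate, was the only one at 1 TPM or more in either line. It had 482.9 TPM in MDA PCa 2b, with 0.108 TPM in RC77 T/E, the opposite direction to that of TMPRSS4. The other 12 stayed under 1 TPM in both. Of all genes, 49.6% reached 1 TPM in MDA PCa 2b and 52.8% did in RC77 T/E. TMPRSS2 was called higher in MDA PCa 2b, beside 20.0% of the genes that averaged at least 1 TPM. It passed the filter only through that line.

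Among 12 further inhibitors, 2 reached 1 TPM in MDA PCa 2b (49.6% of all genes did) compared with 5 in RC77 T/E (52.8% of all genes). Of the 5 that averaged at least 1 TPM, 3 were called higher in RC77 T/E, beside 19.4% of all genes, and 0 in the other line, beside 20.0%. The 3 called passed the filter only through RC77 T/E. SERPINE2, which encodes protease nexin-1, an inhibitor of urokinase and thrombin that also binds prostasin, had 0.523 TPM in MDA PCa 2b compared with 77.8 TPM for RC77 T/E. TFPI2, a secreted protein with Kunitz domains, had 0.275 TPM compared with 54.4 TPM. SERPINA1, which encodes alpha-1-antitrypsin, had 0.400 TPM compared with 14.2 TPM. The Kunitz domain genes APP and APLP2, which encode membrane proteins made by most cells, were within 2-fold, at 1.21 and 1.84 times the MDA PCa 2b level in RC77 T/E. The median log2 ratio of the 5 inhibitors was 3.44.

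Of the 17 substrates and receptors reported here, 8 reached 1 TPM in MDA PCa 2b (49.6% of all genes did) and 12 in RC77 T/E (52.8% of all genes). Over both lines, 12 averaged at least 1 TPM. Of these, 7 were called higher in RC77 T/E, beside 19.4% of all genes, and 5 were within 2-fold, beside 60.7%. The urokinase precursor gene PLAU had 0.373 TPM for MDA PCa 2b against 235.7 TPM for RC77 T/E, and its receptor gene PLAUR had 0.329 and 52.9 TPM. MET, which encodes the receptor of hepatocyte growth factor, had 0.0349 and 69.2 TPM in the same order, while the growth factor gene HGF had 0.0452 TPM for MDA PCa 2b compared with an entry of 0 for RC77 T/E. The related receptor gene MST1R was higher in RC77 T/E by 16.0 times, and its ligand gene MST1 had 2.45 and 4.22 TPM, within 2-fold. The median log2 ratio of the 12 genes was 3.20. In both lists several genes passed the filter only through RC77 T/E. With all genes above 0 included, the median was 0.82 for the substrates and 0.26 for the inhibitors.

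CDCP1, a surface protein that matriptase cuts, was higher in RC77 T/E by 7.53 times. LAMB3 and LAMA3 encode chains of laminin-332, a hepsin substrate. LAMB3 had 0.195 TPM in MDA PCa 2b against 1702 TPM in RC77 T/E, and LAMA3 was higher in RC77 T/E by 23.1 times.

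The substrates within 2-fold were MST1 and 4 genes of ion transport, signaling and adhesion. SCNN1A, the alpha subunit of the epithelial sodium channel that prostasin activates, stood at 96.7 and 97.1 TPM in the 2 lines, whereas SCNN1B and SCNN1G did not exceed 0.371 TPM. F2RL1, the receptor PAR2 that matriptase cleaves, was higher in RC77 T/E by 1.91 times, and so was EPCAM by 1.88 times. With log2 ratios centred on the median of all genes, F2RL1 passed the 2-fold limit. EPCAM encodes an adhesion protein that matriptase cuts and that binds claudin-7, whose gene CLDN7 was higher in MDA PCa 2b by 1.42 times.

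**Figure D4:**
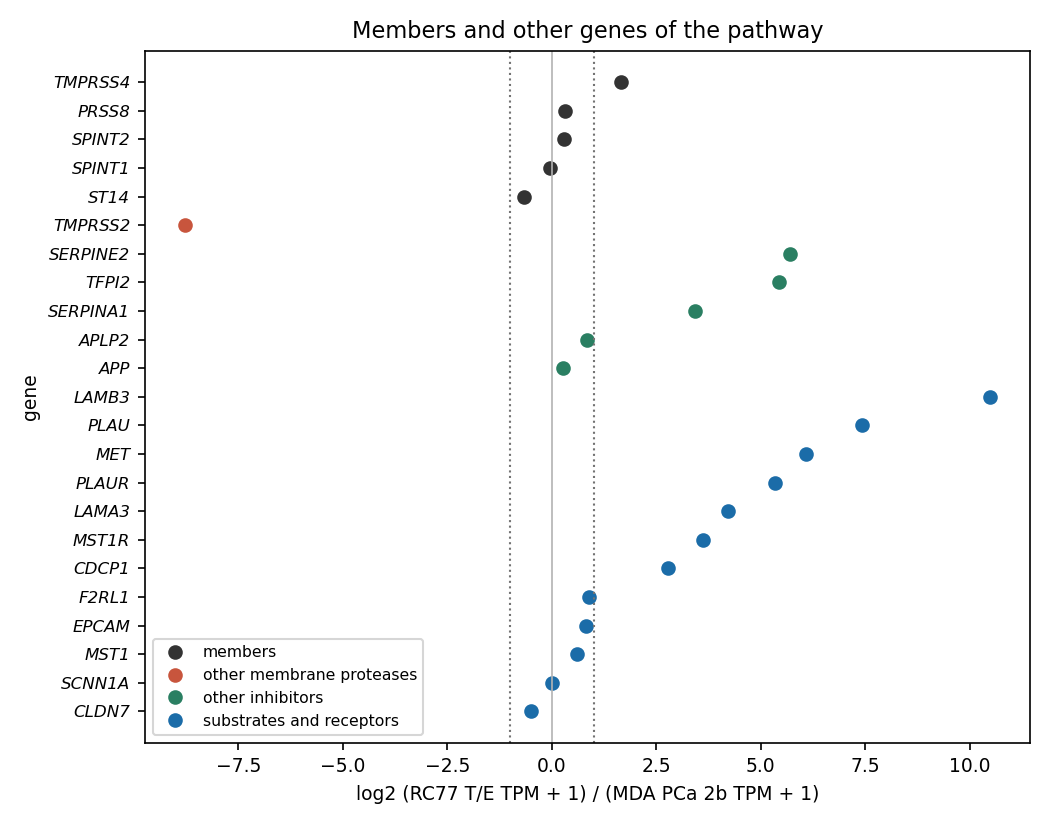
Log2 ratio, RC77 T/E over MDA PCa 2b with 1 TPM added to each, for the reported genes of the 4 lists that averaged at least 1 TPM and are above 0 in both lines, with the 2-fold limits dotted. The members other than TMPRSS4 lie between -0.66 and 0.32, TMPRSS2 lies at -8.77, and 3 inhibitors and 7 substrates or receptors lie to the right of the upper limit, LAMB3 farthest at 10.48. HPN, listed at 0 in RC77 T/E, is not drawn.

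The lines were checked against markers of cell type. All 4 epithelial markers reached 1 TPM in both lines, among them KRT18 with 320.5 and 324.8 TPM for MDA PCa 2b and RC77 T/E. The luminal markers KLK3 and HOXB13 did so for MDA PCa 2b, with a sum of 5326 to 5625 TPM, whereas both are listed at 0 for RC77 T/E. The 4 basal markers summed to 7294 to 8055 TPM for RC77 T/E and to 37.4 TPM for MDA PCa 2b. The MDA PCa 2b sum was nearly all KRT14, with KRT5 at 0.00435 TPM and TP63 and DSG3 at 0. TMPRSS2 had the direction of these luminal markers and TMPRSS4 that of the basal markers. The direction of HPN, KLK3 and HOXB13 rests on entries of 0 for RC77 T/E, each of which can be a failed estimate. The part of cell state in these values was not tested. Leukocyte markers summed to 0.0843 and 4.93 TPM, nearly all of it CD14 in RC77 T/E, with PTPRC and CD3E at or under 0.0126 TPM, and those of stroma and endothelium to 1.10 and 8.25 TPM, led by COL1A1.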

How the data were processed

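RNA-Seq libraries from total RNA of 2 untreated cell lines were analysed, with 1 library each. The authors deposited TPM values per locus together with the mean and standard error over both lines. The submitters' processing notes name CASAVA, FastQC 0.11.9, Trimmomatic 0.38, Salmon 1.2.0 and GRCh38, without saying what each was used for, and the row identifiers have the form given by Cufflinks. Depth is unknown, since TPM keeps no counts.

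Lost decimal marks were restored by trying every position with 1 to 3 digits before and at least 3 after the mark and keeping those for which the deposited mean and standard error were met. One position was left in 16284 of 22791 rows and several in 6507. On 5000 simulated rows, all 4053 with 1 position had the true one. These rows lost their marks by the same rule that the restoration assumes. The simulation therefore checks the code and not whether the deposited values follow that rule. The 22704 distinct loci were summed per gene, with open marks at the lowest position for calls. Genes averaging at least 1 TPM, the threshold the study set, were compared as log2 (TPM + 1), and called at 2-fold. No test was possible.

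All 9 members are named, and of the lists the genes at 1 TPM or more in either line, with a few lower ones to complete a family or receptor pair, chosen after their values were seen. The members and lists were chosen with earlier results of these data known. Overlaps were taken from GENCODE release 29 and promoters from RefSeq. Protein sequences were not analysed here. Some genes of the substrate and marker lists are not reported here, and all counts, sums and medians of these lists are without them and do not describe the lists as first written. Alternatives concerned the threshold (0.5 and 5 TPM), the pseudocount (0.1 TPM), scaling, the filter, the locus sum and the decimal mark. A level or ratio was counted as moved beyond 1.5 times. Computations ran in Python 3.11.15 (numpy 2.4.6), and figures were drawn with matplotlib 3.10.9.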

Additional observations from a re-analysis of the deposited data

How the results depend on the processing

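No paired analysis was possible with 1 library per line. Of 162 values recomputed under the alternatives, 139 stayed within 1.5 times of the reported value and 23 moved further. Direction could count as turned only for the called log2 ratio of TMPRSS4 (0 turned). SPINT1, not called, changed sign under centring. Some of the 139 could not move, such as member levels from the largest locus, or ratios in which the decimal mark is fixed or cancels. The count is thus no measure of stability. The calls of 1 member in each direction were the same under all 6 alternatives tried for them. Both set a level against an entry of 0 (HPN) or 0.0474 TPM (TMPRSS4), which these alternatives hardly change, so their sameness adds no support. At thresholds of 0.5, 1 or 5 TPM, 5 members passed in MDA PCa 2b and between 4 and 7 in RC77 T/E. The share of all genes was not computed at 0.5 or 5 TPM. With a pseudocount of 0.1 TPM the log2 ratio was 4.02 for TMPRSS4, 2.32 for TMPRSS13 and 1.80 for TMPRSS11E, since a smaller pseudocount widens ratios against low values. The median log2 ratio was then -11.18 for the further membrane proteases (1 gene, TMPRSS2) and 4.83 for the further inhibitors, in place of -8.77 and 3.44. With all genes above 0, these medians were 0.021 and 0.26, and that of the substrates 0.82 in place of 3.20, because genes averaging under 1 TPM then enter. At 5 TPM, 5 in place of 8 substrates were counted in MDA PCa 2b, with open marks at the lowest position. The genes lost were MST1, whose mark is fixed, and MST1R and LAMA3, whose marks are open. At the highest position MST1R and LAMA3 lie above 5 TPM, so their loss depends also on the mark. The count was not computed there.

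Centring on the median moved the share of calls that were higher in RC77 T/E from 49.2% to 57.5% over all genes, and scaling to the upper quartile moved it to 56.6%. Under both, 8 in place of 7 substrates were called higher in RC77 T/E, and under the upper quartile 4 in place of 3 further inhibitors were. The background rose as well. Of the 11624 genes, 2542 under centring and 2509 under the upper quartile were called higher in RC77 T/E, in place of 2250.

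With every open mark at its highest position in place of its lowest, SPINT1 over ST14 was 1.12 for MDA PCa 2b against 1.81 for RC77 T/E, and SPINT2 over ST14 was 3.59 and 7.30. Over HPN in MDA PCa 2b, SPINT1 was 1.31 and SPINT2 was 4.21. Over PRSS8, SPINT1 was 0.179 for MDA PCa 2b against 0.139 for RC77 T/E, and SPINT2 was 0.577 and 0.563. The summed inhibitors over ST14 were 4.71 and 9.11, and over ST14, HPN and PRSS8 together 0.583 and 0.652, in place of 5.83 and 6.52.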
